A study of Mus musculus with 6 samples.

Results

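The genes described here are 9 that encode the contractile apparatus of vascular smooth muscle: Acta2, Tagln, Myh11, Cnn1, Mylk, Myl9, Des, Lmod1 and Smtn. They were chosen by name with earlier results of these data known, so counts of members set beside a share of all genes are descriptions only. They were matched to the gene symbols of the count table, where all 9 of 9 had a row among 24421 symbols. All 9 also had enough reads to be tested, among 14852 tested genes. The counts come from bulk RNA sequencing of brain cortex. All mice were C57BL/6 and had undergone MCAO, occlusion of the middle cerebral artery, which models ischaemic stroke. The labels give 2 groups of 3 libraries. GFP_MCAO animals were given green fluorescent protein, the control, and NeuroD1_MCAO animals were given NeuroD1, a proneural transcription factor able to drive other cells to become neurons. Strain and occlusion were thus shared by both groups, and no unoperated group is among the samples used here. The vector, its promoter, the time after occlusion, the sex and age of the animals, and whether each library came from a separate animal are not stated in the labels, and the spread that the p-values rest on may therefore be partly technical. The comparison asks how NeuroD1 alters gene expression in the injured cortex and its vessels.

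Smooth muscle cells wrap arteries, arterioles and veins of the brain and set vessel width. Calcium entering the cell activates myosin light chain kinase, which phosphorylates the regulatory light chain of myosin and lets myosin heavy chain pull on filaments of smooth muscle alpha actin. Many genes of this apparatus are switched on together by serum response factor and its coactivator myocardin, which act at a short DNA motif called the CArG box. Smooth muscle cells can also lose contractile gene expression while remaining alive, and after injury fibroblasts and pericytes can turn on some of the same genes, Acta2 above all.

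Total counts ran from 7753101 to 9698795 in the GFP libraries and from 10843273 to 13440244 in the NeuroD1 libraries, so every NeuroD1 library was deeper. Levels are given as CPM, that is, read counts scaled to equal library size, here by the trimmed mean of M-values (TMM). Neurod1 itself held 3.87 to 6.48 CPM in the GFP libraries and 14.6 to 48.5 CPM in the NeuroD1 libraries. Neurons and astrocytes, the main cells of cortex, were represented in every library, with summed levels of their markers from 1789 CPM and from 5562 CPM upwards. Both of these lowest sums were those of NeuroD1 replicate 2. That library also held the highest summed fibroblast markers (7403 CPM) and microglia and macrophage markers (15469 CPM) of any library. It stood apart in its skeletal muscle transcripts as well. The summed level of 15 skeletal and cardiac muscle markers was 281 CPM there, against 16.4 and 29.7 CPM in the other NeuroD1 libraries and 32.7 to 46.6 CPM in the GFP libraries. Myh4, a fast skeletal myosin chosen here after its values were seen, held 96.0 CPM in that library and 0.359 to 0.534 CPM elsewhere.

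The CArG boxes near the start of Acta2 and Myl9 are shown because these genes carried some of the larger differences below and are textbook targets of serum response factor. RefSeq promoter sequences on GRCm38.p6 were available for 7 of the 9 genes, and the 250 bases before each annotated start were searched. A CArG box, by its usual definition, has its central 6 letters all A or T. The pattern is symmetric, so a match on either strand is also one on its complement. Myl9 alone held such a box. A relaxed form with 1 G or C among the central letters occurred in Acta2 and Myl9. The remaining 5 (Cnn1, Mylk, Des, Lmod1 and Smtn) held neither form in this window. Among 32851 promoters of the same length, 1.47% held the strict form and 7.24% the relaxed form. In each sequence below, written 5′ to 3′ on the strand of the gene, the capitals mark the motif. The Acta2 stretches lie at chr19:34255438-34255467 and chr19:34255388-34255417 on the minus strand, with the motifs 75 to 84 and 25 to 34 bases before the RefSeq start. Both overlap an annotated exon of the gene in GENCODE, where the gene starts further upstream. The Myl9 stretch lies at chr2:156775293-156775384 on the plus strand, outside any annotated exon of the gene. It holds the strict box 152 to 161 bases and the relaxed box 90 to 99 bases before the start.
Acta2, far motif: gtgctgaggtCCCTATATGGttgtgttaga
Acta2, near motif: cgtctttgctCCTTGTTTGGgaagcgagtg
Myl9, both motifs: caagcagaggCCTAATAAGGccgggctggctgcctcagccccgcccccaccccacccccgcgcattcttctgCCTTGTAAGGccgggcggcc
A match describes letters and is not a measured binding site.

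All 9 contractile genes had lower fitted levels with NeuroD1, and their median log2 fold change was -0.99 against 0.024 over all tested genes. None passed the quasi-likelihood test of edgeR with Benjamini-Hochberg adjustment over all genes, where 0 genes passed (0.00% of those tested). At an unadjusted edgeR p under 0.05, 5 of 9 were lower and 0 higher, against 11.5% of all tested genes lower. These were Myh11, Myl9, Lmod1, Acta2 and Tagln. With GFP replicate 2 or NeuroD1 replicate 1 left out the count was 2 (Myh11 and Myl9), against 5.4% and 5.56% of all genes tested in those fits. With NeuroD1 replicate 3 left out it was 3, against 13.6%. In Myh11, Mylk, Myl9 and Lmod1, 4 of 9, every NeuroD1 library lay below every GFP library, against 15.3% of all tested genes. DESeq2 called 2 of 9 lower after adjustment, Myh11 and Myl9, and 0 higher, against 3.93% lower and 5.07% higher of the genes it tested. These DESeq2 calls carry less weight, because on simulated data it picked out unchanged genes too often. Over all genes 3564 had an unadjusted edgeR p under 0.05, and after adjustment limma-voom called 0 and DESeq2 1374. Bulk counts do not tell fewer smooth muscle cells from less of these RNAs in each cell.

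**Figure D1:**
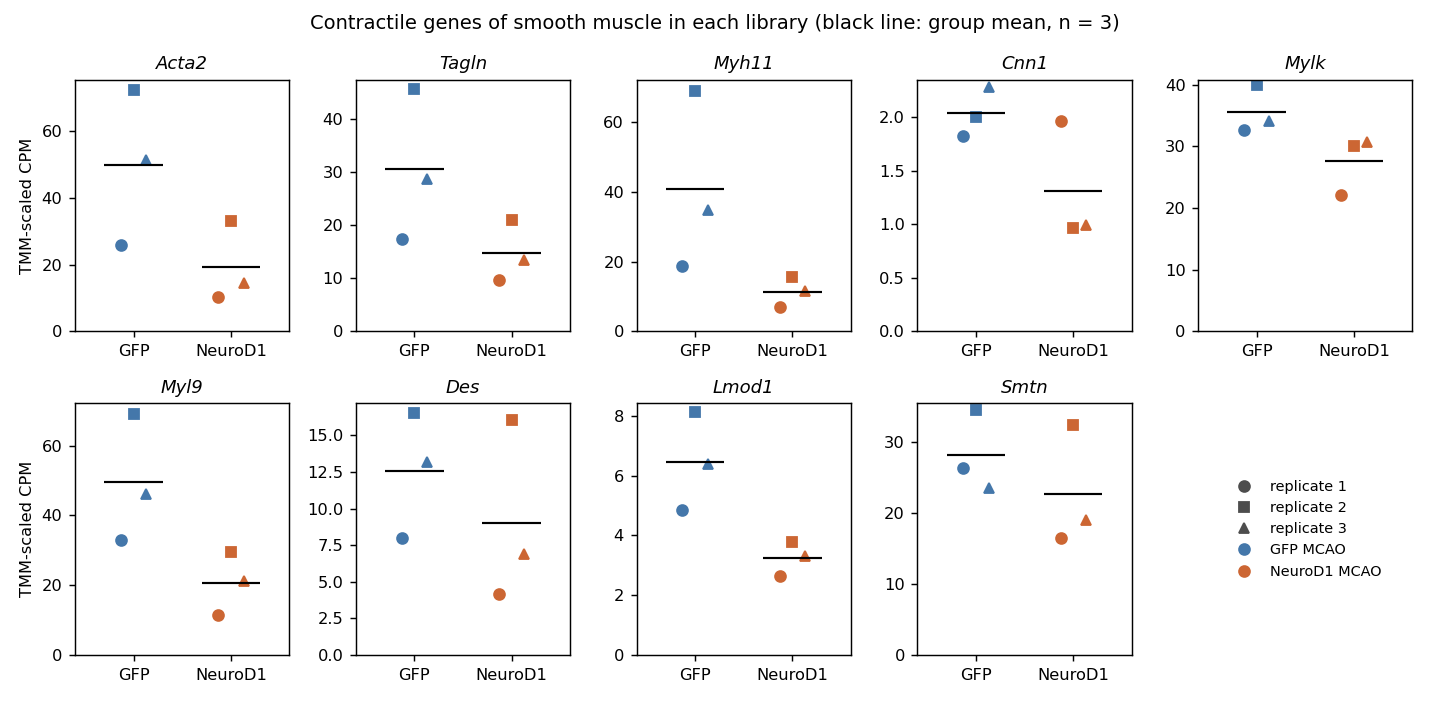
TMM-scaled CPM of the 9 contractile genes in each library, with group on the horizontal axis, marker shape for the replicate number and a black line for the group mean (n = 3). Every NeuroD1 point lies below every GFP point for Myh11, Mylk, Myl9 and Lmod1, and the groups overlap for the other genes.

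Among the myosin genes, Myh11 showed the largest difference of the 9. It encodes the smooth muscle myosin heavy chain, the most specific marker of the group (chromosome 16, 14194535 to 14291372, minus strand, GRCm38). Its level was 18.6, 69.1 and 34.7 CPM in GFP replicates 1, 2 and 3, and 6.93, 15.5 and 11.4 CPM in NeuroD1 replicates 1, 2 and 3. The groups did not overlap, and the GFP libraries varied among themselves by a factor of 3.71. The GFP mean was 40.8 ± 25.8 CPM and the NeuroD1 mean 11.3 ± 4.28 CPM (SD, n = 3 each), a 3.62-fold lower fitted level. Its log2 fold change was -1.86 (SE 0.49, 95% interval -2.97 to -0.74, edgeR adjusted p = 0.137), and DESeq2 gave an adjusted p of 0.00773. Without GFP replicate 2, its highest library, Myh11 was 2.37-fold lower.

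Myl9 encodes the regulatory light chain that is phosphorylated to start contraction (chromosome 2, 156775420 to 156781658, plus strand). Its level was 32.9, 69.2 and 46.2 CPM in the GFP replicates and 11.4, 29.4 and 21.1 CPM in the NeuroD1 replicates. The highest NeuroD1 library thus lay just under the lowest GFP library. The fitted level was 2.39-fold lower (log2 fold change -1.26, SE 0.39, edgeR adjusted p = 0.141; DESeq2 adjusted p = 0.036). Mylk, which encodes the kinase for this light chain and, from other starts, a long kinase of non-muscle cells and the short protein telokin, held 32.6, 39.9 and 34.1 CPM with GFP and 22.1, 30.0 and 30.7 CPM with NeuroD1. Its groups did not overlap either, but the difference was small, 1.29-fold (log2 fold change -0.36, SE 0.21, edgeR adjusted p = 0.313). Counts per gene do not separate the Mylk products. Its exons share 548 bases with the antisense gene E130310I04Rik, which had 4 reads over all libraries.

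Among genes of the actin filament, Acta2, the smooth muscle alpha actin (chromosome 19, 34241090 to 34255590, minus strand), stood at 25.9, 72.4 and 51.3 CPM in the GFP replicates and 10.3, 33.1 and 14.4 CPM in the NeuroD1 replicates. NeuroD1 replicate 2 lay above GFP replicate 1, so the groups overlapped. The fitted level was 2.59-fold lower (log2 fold change -1.37, SE 0.49, 95% interval -2.50 to -0.25, edgeR adjusted p = 0.164). Without NeuroD1 replicate 2 it was 4.02-fold lower (edgeR adjusted p = 0.153), and without GFP replicate 2 it was 2.01-fold lower (edgeR adjusted p = 0.449). Actin genes are close relatives in sequence and it is not stated how reads with several matches were handled, so the split of reads between Acta2 and other actins is uncertain.

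Tagln encodes transgelin, an actin cross-linking protein also called SM22. It held 17.3, 45.7 and 28.8 CPM with GFP and 9.72, 21 and 13.5 CPM with NeuroD1, where NeuroD1 replicate 2 again exceeded GFP replicate 1. The fitted level was 2.08-fold lower (log2 fold change -1.05, SE 0.40, edgeR adjusted p = 0.176). Without GFP replicate 2 it was 1.57-fold lower (edgeR adjusted p = 0.49). Exons of Tagln share 1241 bases with the antisense gene Gm48529, which has no row in the count table, and 108 bases with Pcsk7 on the opposite strand, which had 2023 reads over all libraries. Whether the counting used strand is not stated, so reads of Tagln and of these genes may not have been separated there.

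Lmod1, leiomodin, starts new actin filaments in smooth muscle. Its level was 4.86, 8.15 and 6.41 CPM in the GFP replicates and 2.64, 3.77 and 3.32 CPM in the NeuroD1 replicates, without overlap. This was a 1.99-fold lower fitted level (log2 fold change -0.99, SE 0.33, edgeR adjusted p = 0.149) and the narrowest relative spread within the NeuroD1 group after Mylk. Its counts were low, from 35 to 61 reads per library.

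Smtn, the actin-binding smoothelin, and Cnn1, calponin, which restrains the myosin motor, did not reach an unadjusted p under 0.05. Smtn held 26.3, 34.6 and 23.6 CPM with GFP and 16.5, 32.4 and 19.0 CPM with NeuroD1 (log2 fold change -0.32, SE 0.30, edgeR adjusted p = 0.523). The groups overlapped through NeuroD1 replicate 2, without which the log2 fold change was -0.66 (edgeR adjusted p = 0.173). Cnn1 was the scarcest member, with 10 to 26 reads per library. Its level was 1.82, 2 and 2.28 CPM with GFP and 1.96, 0.968 and 0.987 CPM with NeuroD1, so NeuroD1 replicate 1 lay within the GFP range. The log2 fold change was -0.62 (SE 0.44, 95% interval -1.62 to 0.38, edgeR adjusted p = 0.393).

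Des encodes desmin, the intermediate filament protein that links contractile units in smooth, skeletal and cardiac muscle. It held 8, 16.6 and 13.1 CPM with GFP and 4.14, 16.1 and 6.91 CPM with NeuroD1. NeuroD1 replicate 2, the library with the skeletal muscle transcripts, held 3.88 times as much Des as NeuroD1 replicate 1. With all libraries the log2 fold change was -0.48 (SE 0.50, edgeR adjusted p = 0.561). Without NeuroD1 replicate 2 it was -1.18 (edgeR adjusted p = 0.16), a 2.26-fold lower level, and 7 of 9 members then had an unadjusted p under 0.05, against 11.9% of all genes tested lower in that fit. The part of skeletal muscle RNA in the Des reads of that library was not tested.

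**Figure D2:**
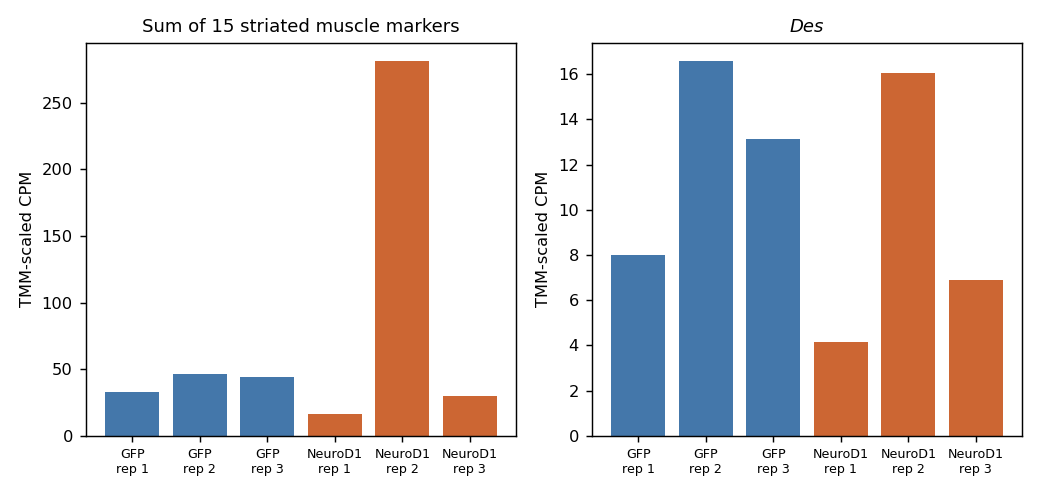
Left, summed TMM-scaled CPM of 15 skeletal and cardiac muscle markers in each library, and right, TMM-scaled CPM of Des. NeuroD1 replicate 2 holds 281 CPM of the striated muscle markers and 16.1 CPM of Des, the highest of the NeuroD1 group in both.

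**Figure D3:**
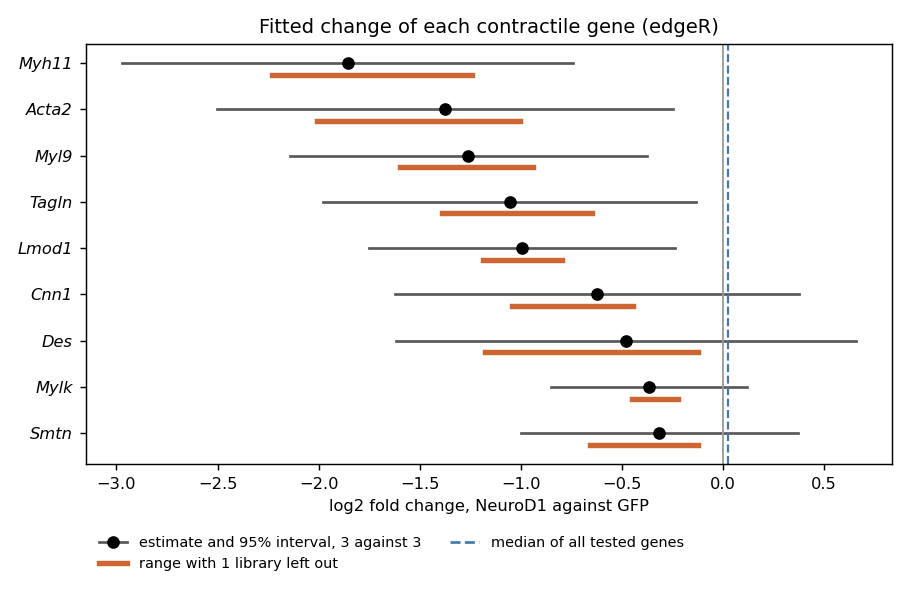
Fitted log2 fold change of each contractile gene, NeuroD1 against GFP, with its 95% interval (grey), the range when 1 of the 6 libraries is left out (orange) and the median of all tested genes (dashed). The estimates run from -1.86 for Myh11 to -0.32 for Smtn, and the intervals of Cnn1, Des, Mylk and Smtn include 0.

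The members followed a shared order of libraries within each group. GFP replicate 2 was the highest GFP library for 8 of 9 members and GFP replicate 1 the lowest for 8 of 9. In the NeuroD1 group, replicate 1 was the lowest for 8 of 9 and replicate 2 the highest for 7 of 9. Cnn1 was an exception in 3 of these 4 counts. The share of all tested genes with the same order was not counted, so the order is not shown to be particular to the members. With each gene set against its own GFP mean, the median of the 9 members was -0.52, 0.46 and 0.017 on the log2 scale in GFP replicates 1, 2 and 3, and -1.53, -0.47 and -1.01 in NeuroD1 replicates 1, 2 and 3. By this median, NeuroD1 replicate 2 lay only slightly above GFP replicate 1. The library with the lowest contractile levels, NeuroD1 replicate 1, was also the one with the most Neurod1 reads, 644 (48.5 CPM). NeuroD1 replicate 2 had the fewest of its group, 151 (14.6 CPM), and replicate 3 held 38.4 CPM. NeuroD1 replicate 2 also had the lowest neuron and astrocyte sums and the skeletal muscle transcripts. Neurod1 level and tissue make-up cannot be told apart here. With 3 libraries no relation between these values was tested.

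Levels between genes were compared per kilobase of merged exons (RPKM, on the TMM scale). In the GFP group Myl9 was highest at 42.5 ± 15.8 RPKM, followed by Acta2 at 22.7 ± 10.6 and Tagln at 15.4 ± 7.18 (SD, n = 3). Smtn (6.43 ± 1.31), Myh11 (5.37 ± 3.39), Des (3.35 ± 1.15) and Mylk (3.16 ± 0.344) came next, and Lmod1 (1.64 ± 0.417) and Cnn1 (0.744 ± 0.0845) were lowest. Myl9 exceeded Acta2, and Acta2 exceeded Tagln, within each of the 3 GFP libraries, although the ranges of these neighbours overlapped. Smtn and Myh11, and Des and Mylk, swapped order in 1 of 3 GFP libraries, so these neighbours did not differ beyond their spread. With NeuroD1, Myh11 stood in seventh place at 1.48 ± 0.563 RPKM, below Smtn (5.17 ± 1.95), Mylk (2.45 ± 0.422) and Des (2.41 ± 1.66). Myl9 (17.8 ± 7.74) remained first in all 3 NeuroD1 libraries, while Acta2 (8.77 ± 5.53) exceeded Tagln (7.41 ± 2.89) in only 1 of them.

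Other parts of the contractile machinery did not share a direction. Among 13 tested genes of further contractile and cytoskeletal partners, 2 were lower and 1 higher at an unadjusted edgeR p under 0.05, and the median log2 fold change was -0.0034. Csrp1, a LIM protein of actin fibres, was lower (470.7 ± 95.7 CPM with GFP, 268.7 ± 27.8 with NeuroD1, log2 fold change -0.81, edgeR adjusted p = 0.141). Pdlim7, a scaffold of actin fibres, was also lower (67.1 ± 15.1 and 40.1 ± 15 CPM, -0.74, edgeR adjusted p = 0.192). Tpm1, a tropomyosin that smooth muscle shares with many cells, was higher (151 ± 16.5 and 224.7 ± 19.5 CPM, 0.57, edgeR adjusted p = 0.162). Over all tested genes 11.5% were lower and 12.5% higher at that p.

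Of 12 genes that control myosin phosphorylation, 2 were lower and 2 higher at an unadjusted p under 0.05, with a median of 0.41. Ppp1r14a, an inhibitor of myosin phosphatase that is abundant in smooth muscle, stood at 35.4 ± 15 CPM with GFP and 16.5 ± 5.37 CPM with NeuroD1, with no overlap (log2 fold change -1.10, SE 0.37, edgeR adjusted p = 0.152). Ppp1r12c, a targeting subunit of that phosphatase family, was lower as well (-0.76, edgeR adjusted p = 0.159). Prkg1, the cyclic GMP-dependent kinase that relaxes smooth muscle, was higher (7.90 ± 1.74 and 13.7 ± 2.67 CPM, 0.79, edgeR adjusted p = 0.161). With offsets for transcript length and GC content, 0 lower and 0 higher were counted in this list.

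Among 11 tested transcriptional regulators of smooth muscle, 1 was lower and 1 higher at an unadjusted edgeR p under 0.05, with a median of 0.35. This did not exceed the share of all tested genes, 11.5% lower and 12.5% higher. Notch3, the receptor that maintains arterial smooth muscle, was lower (61.3 ± 7.84 and 39.0 ± 7.98 CPM, log2 fold change -0.65, edgeR adjusted p = 0.147). Rbpj, the DNA-binding partner of Notch receptors, was higher (54.0 ± 3.10 and 91.0 ± 25.8 CPM, 0.75, edgeR adjusted p = 0.145). Mkl1, a myocardin-related coactivator, had a log2 fold change of 0.35 (edgeR adjusted p = 0.277). Srf, named here after its values were seen, had one of 0.02 (SE 0.19). Myocd, the myocardin gene itself, also named after its values were seen, had 0 to 4 reads in every library and was not tested. Of 14 tested channels, receptors and calcium store genes, 1 was lower and 1 higher, with a median of 0.23, which did not exceed those shares either. The calcium pump inhibitor gene Pln was lower (6.01 ± 3.14 and 2.06 ± 0.872 CPM, -1.54, edgeR adjusted p = 0.152) and the endothelin receptor gene Ednra higher (18.6 ± 2.46 and 33.3 ± 15.7 CPM, 0.84, edgeR adjusted p = 0.179). Cacna1h, a T-type calcium channel gene, had a log2 fold change of -0.77 (edgeR adjusted p = 0.238). Each of the 6 libraries, when left out, moved at least 1 of the counts in these 4 lists by more than 1.5 times. Leaving out 1 library took the lower count of the cytoskeletal partners to between 0 (NeuroD1 replicate 1) and 4 (NeuroD1 replicate 2), and that of the channel list to between 0 (GFP replicate 2) and 4 (NeuroD1 replicate 3). Both counts of the phosphorylation list were 0 without GFP replicate 2 or NeuroD1 replicate 1.

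Markers of the cells that adjoin smooth muscle are given beside the contractile genes, followed by those of other cells in the tissue. Of 10 pericyte markers, 5 were lower and 1 higher at an unadjusted edgeR p under 0.05 (median log2 fold change -0.67). Over all tested genes 11.5% were lower and 12.5% higher at that p. Higd1b (-2.08), Vtn (-0.73) and Atp13a5 (-0.98) had the smallest p, with adjusted p = 0.136, 0.14 and 0.147. Of the 10 markers, 7 had lower fitted levels. The others, named after their values were seen, were Cspg4 (0.71, edgeR adjusted p = 0.197), Pdgfrb (0.34) and Abcc9 (0.022). Cspg4 was the 1 higher marker. The lower count was 2 without NeuroD1 replicate 1 and 3 without GFP replicate 3. Of 12 endothelial markers 8 were lower and 0 higher (median -0.86), and Tek (-1.46), Esam (-1.34) and Pecam1 (-1.05) had the smallest p. The summed levels were 430.1 to 487 CPM with GFP and 318.1 to 550.7 CPM with NeuroD1 for pericyte markers, and 704.7 to 1064 CPM against 303.4 to 596 CPM for endothelial markers. The 9 contractile genes summed to 168.4 to 357.6 CPM with GFP and 85.8 to 182.2 CPM with NeuroD1. None of the markers of either list was at 0 in all libraries.

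Fibroblast and myofibroblast markers went the other way, with 11 of 12 higher and 0 lower and a median log2 fold change of 1.5. Without GFP replicate 2 the higher count was 8. Without NeuroD1 replicate 2 it was 9, with a median of 0.99. Lox, which cross-links collagen, had a mean of 18.3 ± 5.97 CPM with GFP and 103.4 ± 90.4 CPM with NeuroD1. Pdgfra, a receptor of fibroblasts and oligodendrocyte precursors, and Lum, a collagen-binding proteoglycan, were 2.23-fold and 4.05-fold higher. These 3 had the smallest p of the list, each with an edgeR adjusted p of 0.136. Their list summed to 1158 to 1968 CPM with GFP and 1947 to 7403 CPM with NeuroD1, highest in NeuroD1 replicate 2. In that library 7 of the 9 contractile genes were also highest of the NeuroD1 group. How many of all tested genes were highest there was not counted.

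Of 10 microglia and macrophage markers, 5 were higher and 0 lower (median 0.57). Those with the smallest p were Ptprc, a phosphatase of all leukocytes (1.15), Adgre1, the macrophage marker F4/80 (1.35), and Lyz2, a lysozyme of myeloid cells (1.62), with edgeR adjusted p = 0.136, 0.136 and 0.152. The list summed to 4592 to 6954 CPM with GFP and 6413 to 15469 CPM with NeuroD1. The higher count was 3 without GFP replicate 1, 2 or 3 or without NeuroD1 replicate 2, and 1 marker was lower without GFP replicate 1. Of 8 astrocyte markers, 3 were lower and 0 higher (median -0.43), namely S100b (-1.10), Aldoc (-1.21) and Gfap (-0.93), with edgeR adjusted p = 0.136, 0.136 and 0.193. Their list summed to 9482 to 15639 CPM with GFP and 5562 to 10223 CPM with NeuroD1. Of 8 neuron markers 0 were lower or higher (median 0.23), and Nefl (0.51), Rbfox3 (-0.30) and Tubb3 (0.25) had the smallest p. Without NeuroD1 replicate 2, 2 neuron markers were higher. Among 8 tested skeletal and cardiac muscle markers 1 was lower, the cardiac myosin gene Myh6 (-2.10), and Myh1 (2.56) and Tnnt2 (-0.83) had the next smallest p. Leaving out GFP replicate 3 gave a lower count of 0. Removing NeuroD1 replicate 1 gave 1 lower and 3 higher, removing NeuroD1 replicate 2 gave 2 and 0, and removing NeuroD1 replicate 3 gave 3 and 2. The part of any of these cell types in the contractile gene levels was not tested.

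**Figure D4:**
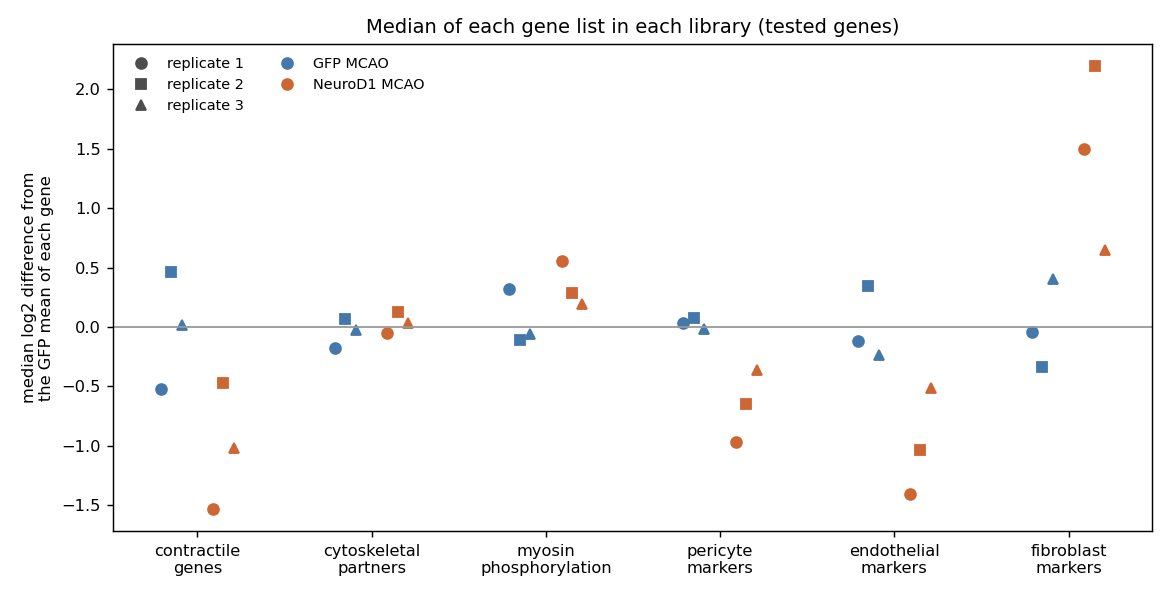
Median over the tested genes of 6 lists in each library, as the log2 difference from the GFP mean of each gene, with marker shape for the replicate. The contractile genes lie at -1.53, -0.47 and -1.01 in the NeuroD1 libraries, pericyte and endothelial markers also lie below 0 there, fibroblast markers above 0, and cytoskeletal partners near 0.

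Several contractile genes have close relatives that most cells express, and the ratio of the pair within a library does not depend on scaling between libraries. Acta2 was compared with cytoplasmic beta actin (Actb), Myh11 with non-muscle myosin (Myh9), Tagln with Tagln2, Cnn1 with Cnn3, Myl9 with Myl12a, and Des with vimentin (Vim). The mean log2 ratio of Myh11 to Myh9 was -3.37 ± 0.816 with GFP and -5.82 ± 0.488 with NeuroD1 (SD, n = 3), a difference of -2.45. It was -1.97 for Acta2 to Actb, -1.71 for Myl9 to Myl12a and -1.67 for Tagln to Tagln2. In these 4 of 6 pairs the groups did not overlap, and each had a two-sided exact permutation p of 0.1, the smallest that 3 against 3 can give (0.15 adjusted over 6 pairs). The difference was -0.81 for Des to Vim (exact p = 0.2, adjusted 0.24) and -0.21 for Cnn1 to Cnn3 (exact p = 0.6, adjusted 0.6). Of the relatives themselves, Myh9 had a log2 fold change of 0.81 (edgeR adjusted p = 0.196), and Actb (0.64), Tagln2 (0.77), Myl12a (0.51), Vim (0.17) and Cnn3 (-0.48) each had an unadjusted edgeR p of at least 0.0599. Among other relatives, the non-muscle myosin gene Myh14 had a log2 fold change of -0.90 and Tagln3, a neuronal relative of Tagln, -0.75 (edgeR adjusted p = 0.14 and 0.217).

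**Figure D5:**
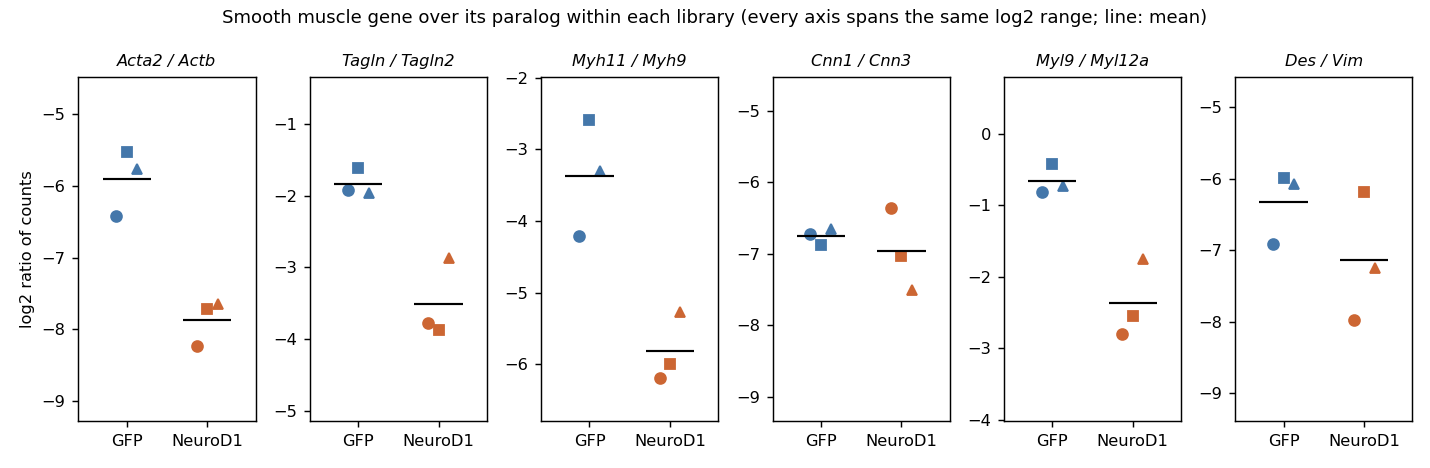
Log2 ratio of the counts of a smooth muscle gene to those of its more widely expressed relative in each library, with the group mean as a line (n = 3). The ratio is lower in every NeuroD1 library for Acta2, Tagln, Myh11 and Myl9, and the groups overlap for Cnn1 and Des.

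Genes with the profile most like the contractile genes were sought among 14729 other tested genes with at least 1 CPM, by the root-mean-square distance from the median profile of the members over the 6 libraries. The 5 closest were Arglu1 (0.083 on the log2 scale), Clk3 (0.089), H2-Ke6 (0.099), Slx1b (0.099) and Pan2 (0.099), each closer than the nearest member, Lmod1 (0.145), is to that median. The median profile is itself lower with NeuroD1, so genes picked by it are lower too. The 5 had log2 fold changes from -1 to -0.87, and for each of them the 3 NeuroD1 libraries lay below the 3 GFP libraries. Arglu1, for example, stood at 82.6, 140 and 117 CPM with GFP and 38.9, 80.0 and 64.4 CPM with NeuroD1. None of the 5 belongs to a vascular list used here.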

How the data were processed

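Gene expression was measured by bulk RNA sequencing of total RNA in 6 cortex libraries, 3 per group, grouped by sample title. The table deposited by the authors holds unnormalized counts for each gene symbol, and its header names featureCounts and an mm10 annotation. The submitters' processing notes list HISAT2 2.0.1, DESeq2 1.16.1 and the build GRCm38, with no role for any of them. Strand setting, annotation release and read filters: not given in the sources used here. Columns were matched to samples by the sample description.

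Counts were tested with edgeR 4.0.16 in R 4.3.3 (quasi-likelihood F-test, two-sided, TMM scaling, treatment as the only term, filterByExpr with minimum count 10 and total 15) on 14852 genes, with Benjamini-Hochberg adjustment over all of them and a threshold of 0.05. Standard errors and 95% intervals were derived from the F statistic. One count equals 0.0753 to 0.134 CPM. Exon lengths and positions came from GENCODE M21 (GRCm38). Profiles and ratios used a prior count of 0.5. The rule for named genes took the members, the 3 genes of each list with the smallest p, the paired relatives and the 5 genes most like the members. Genes named otherwise are said to be chosen after their values were seen. The members and lists were chosen with earlier results of these data known. Alternatives were DESeq2 1.42.0, limma-voom (limma 3.58.1), other scalings and filters, a replicate block, offsets for transcript length and GC content, removal of Rn45s, and leaving out each library. The tests were also run on simulated data, in which genes were drawn independently with the spread that edgeR estimated. There DESeq2 picked out unchanged genes more readily than edgeR or limma-voom, and too often for an adjusted threshold of 0.05.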

Additional observations from a re-analysis of the deposited data

How the results depend on the processing

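All 9 contractile genes had lower fitted levels under every one of the 15 alternatives. In each that kept all libraries, 5 of 9 were lower at an unadjusted p under 0.05, against 9.43% to 15.9% of all genes. Leaving out 1 library gave between 2 (GFP replicate 2 or NeuroD1 replicate 1 left out, where 5.4% and 5.56% of all genes were lower at that p) and 7 (NeuroD1 replicate 2 left out, 11.9%). It was 3 with NeuroD1 replicate 3 left out (13.6%). Myh11 and Myl9 were counted each time. The count past the adjusted threshold was 0 of 9 whichever library was left out, 2 with DESeq2 and 4 with the replicate block (Acta2, Tagln, Myh11 and Myl9, adjusted p from 0.0447 to 0.0458). Their median log2 fold change lay between -1.19 and -0.65 with 1 library left out and was -0.83 with offsets for length and GC content. Over all genes DESeq2 called 774 higher and 600 lower. The replicate block called 218 higher and 261 lower of 14852 tested, against 0 by edgeR without the block. Same-numbered libraries had correlations of 0.505, 0.358 and 0.046 between their deviations from the group means, and differently numbered ones from -0.438 to 0.12. The labels do not say that the numbers pair the samples, so the main fit had no block. These correlations do not settle whether the samples are paired. With NeuroD1 replicate 3 left out the direction turned for the neuronal gene Tubb3 (log2 fold change -0.091, up to 0.58 with other libraries left out) and for the Cnn1 to Cnn3 ratio (0.059, down to -0.51). Per longest transcript in place of merged exons, Mylk stood at 4.54 RPKM with GFP and 3.53 with NeuroD1, Smtn at 8.32 and Cnn1 at 0.855 with GFP. Depth limits Cnn1 most, at 10 to 26 reads per library.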
